A study of Mus musculus with 9 samples.

Results

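White fat was compared with the soleus, a postural muscle of the hind limb, by RNA-seq of 3 libraries per tissue. The comparison covers 9680 of the 17753 genes in the deposited matrix: those with a level of at least 1 FPKM in at least 3 of the 6 white fat and soleus libraries. FPKM is a count of fragments divided by transcript length and by the number mapped in the library. The mice were wild-type C57BL/6J males aged 3 months, with no treatment named in the labels, and 3 brown fat libraries of the same series entered the estimate of the spread. The labels speak of 3 mice but do not tie libraries to animals. P-values therefore measure the spread between these samples, which may be technical. The white fat depot is not given in the sources used here.

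White adipocytes take up glucose and fatty acids, store them as triglyceride in a single large droplet and release fatty acids when other tissues need fuel, and they secrete hormones such as leptin and adiponectin. Muscle fibres hold sarcomeres, in which myosin heads pull on actin filaments when calcium leaves the sarcoplasmic reticulum and binds troponin C. The soleus of the mouse mixes slow fibres, which rely on mitochondrial respiration, with fast oxidative fibres, and many of its metabolic enzymes are made from muscle-specific paralogs of genes that other tissues use. Both tissues also hold vessels, nerves, immune cells and connective tissue, so a library reports on all of these together.

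The labels were first checked against markers of each tissue. Cidec, a protein of the lipid droplet surface, was at 1604, 1599 and 1592 FPKM in white fat and 45.2, 13.2 and 6.03 in soleus. Adipoq, the hormone adiponectin, was at 3067, 2573 and 2989.8 FPKM in white fat and 77.1, 31.8 and 12.4 in soleus. Both markers of adipocytes were thus high in each white fat library, and their soleus values were ordered in the same way, with soleus 1 highest and soleus 3 lowest. Myl2, the regulatory light chain of slow myosin, was at 8755, 11002 and 9634 FPKM in soleus and 0, 0 and 0.0195 in white fat. Tnnc2, the calcium sensor of fast fibres, was at 9196, 11322 and 10106 FPKM in soleus and 0.3997, 1.02 and 1.11 in white fat. No library carried the markers of the other tissue at the level of its own. In bulk tissue, fewer cells of a type and less RNA per cell cannot be told apart, here and for each gene group below. The heavy chain genes of the slow and fast fibres (Myh7, Myh1, Myh2 and Myh4) and the lipid droplet gene Plin1 are not analysed here.

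Some libraries stood apart within their tissue. Among the 32 members that were at least 5 log2 units higher in white fat and averaged at least 100 FPKM there, the level in soleus was a median of 3.32%, 1.43% and 0.597% of the white fat mean in soleus 1, 2 and 3. Each of these 32 genes had the same order of the 3 soleus libraries. The relative depths of soleus 1, 2 and 3, read from the spacing of low values with the shallowest of the 6 libraries set to 1, were 2.35, 1.66 and 1.45, also in this order. In the other direction, 84 genes at least 5 log2 units higher in soleus, with at least 100 FPKM there, were at a median of 0.0365%, 0.0515% and 0.0726% of the soleus mean in white fat 1, 2 and 3. The relative depths of these libraries were 1.39, 1 and 3.58. White fat 3 had the highest values of 4 genes that brown fat uses (Ucp1, Cidea, Cox8b and Cox7a1). They were at a median of 1.31% of the brown fat mean against 0.407% and 0.218% in white fat 1 and 2. The part of these traces in the differences below was not tested. For genes of the naming rule, ratios without soleus 1 or white fat 3 are given where the ratio moves by over 1.5 times. None is given where the other libraries of the tissue are all at 0, or for genes picked after their values were seen. Of the genes picked by the rule for named genes that had a ratio of means, 22 of 214 had one more than 1.5 times larger without soleus 1, 6 of 208 without white fat 3, 3 of 215 without white fat 2 and 2 of 215 without white fat 1. Without soleus 2, 1 ratio was smaller by as much, and none moved that far without soleus 3.

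**Figure D1:**
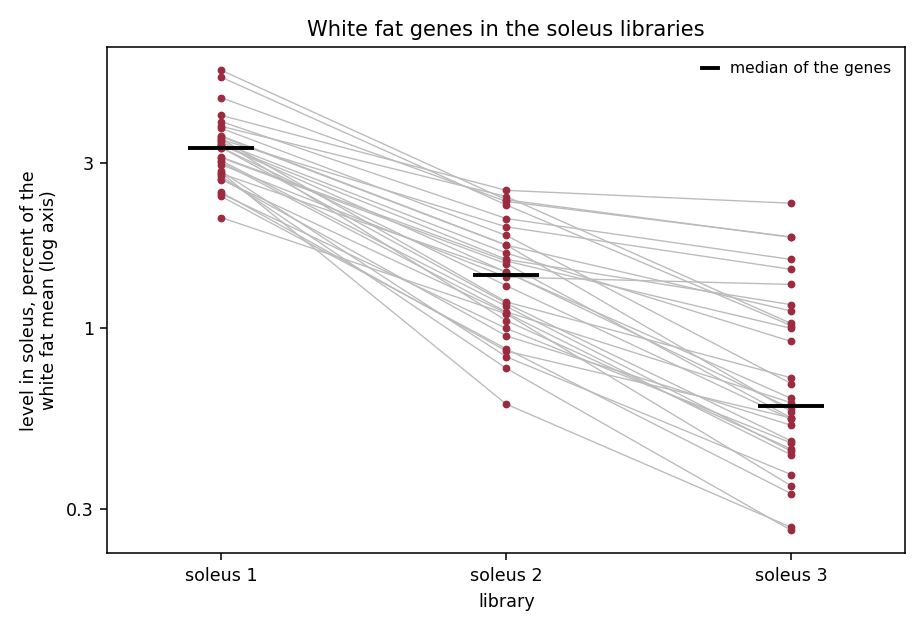
Level of 32 white fat genes (at least 5 log2 units higher in white fat, at least 100 FPKM there) in each soleus library, as a percent of their white fat mean on a log axis. Points are genes, grey lines join the values of 1 gene and black bars are medians (3.32%, 1.43% and 0.597%); each gene is highest in soleus 1 and lowest in soleus 3.

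Most genes differed between the tissues. In limma fits, 8217 of the 9680 members (84.9%) were called at an adjusted p under 0.05. Of the members, 5290 (54.6%) were higher in white fat and 2927 (30.2%) were lower. Differences are of log2(FPKM + 1), white fat minus soleus, so they understate the change of genes near 0. A log2 difference of at least 1 was reached by 2670 members higher in white fat (27.6%) and by 1405 lower (14.5%). The range was longer on the muscle side: 146 members were lower in white fat by at least 5 log2 units and 46 were higher by as much. The count of 46 was 60 without soleus 1 and 28 without soleus 3. The 3 libraries of a tissue did not overlap with those of the other in 8340 members (86.2%). A lack of overlap in genes named below is thus the usual case. A filter on low values forces part of this. In all, 996 members reached 1 FPKM in each white fat library and in no soleus library, 539 did the reverse, and 7601 reached it in all 6. For these genes of 1 tissue, a difference follows from how they passed the filter, and beside each list below stands how many of its members they are. Their adjusted p-values are given as a description. Counts of calls in each list are to be read against the 54.6% higher and 30.2% lower of all members.

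The split between directions depended on the scale. The sum of FPKM was 213936 to 234886 in white fat and 308949.6 to 352502 in soleus, of which the top 20 genes took 14.8% to 16.1% in white fat and 27.8% to 29.3% in soleus. The median log2 difference of all members was 0.35. It was 0.80 after rescaling each library to a common sum (TPM), 0.17 with upper quartile scaling, 0.01 with median of ratios scaling and 0.05 with quantile normalization. Of the called members, 64.4% were higher in white fat, against 78.5%, 56.8%, 49.9% and 52.4% under these 4 scalings. A difference near 0.35 is thus in the middle of all members, and it is stated where the direction of a named gene or list turned. A log2 difference of at least 1 held under every scaling for 1876 members higher in white fat and 1005 lower.

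The 10 genes that led in white fat were Cidec, Pck1, Nnat, Trf, Adipoq, Cyp2e1, Retn, Cdo1, Aoc3 and Lep, and none overlapped between tissues. Pck1, an enzyme of the route that makes glycerol phosphate for triglyceride from small precursors in fat, was at 662, 626 and 645 FPKM in white fat and 15.4, 5.61 and 2.14 in soleus (log2 difference 6.53, SE 0.44, adjusted p = 1.08e-07). Cidec had a log2 difference of 6.59 (SE 0.50, adjusted p = 3.21e-07). Adipoq, the hormone, had one of 6.47 (SE 0.47, adjusted p = 2.10e-07). Nnat, an imprinted gene of the endoplasmic reticulum that adipocytes express, was at 1168, 664 and 1098 FPKM in white fat and 20.3, 10.7 and 3.42 in soleus (log2 difference 6.52, SE 0.46, adjusted p = 1.70e-07). Trf, the iron carrier transferrin, was at 1835, 1390.0 and 1617 FPKM in white fat and 39.4, 16.1 and 7.52 in soleus. Cyp2e1, a cytochrome P450, was at 1604, 1922 and 1813 FPKM in white fat and 47.99, 16.9 and 9.32 in soleus. Cdo1, which degrades cysteine for taurine synthesis, had a log2 difference of 6.22. That of Aoc3, an amine oxidase of the adipocyte surface, was 6.18. Soleus 1 had the highest soleus value of each of these genes. Without it, the ratio of mean FPKM between tissues went from 74.4 to 166 for Cidec and from 71.2 to 130.2 for Adipoq. It went from 83.3 to 166 for Pck1 and from 76.9 to 137 for Trf. It went from 84.9 to 138 for Nnat, from 71.9 to 136 for Cyp2e1, from 64.7 to 125 for Cdo1 and from 77.5 to 142 for Aoc3.

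Of the 10 genes that led in soleus, 7 encode light chains of myosin or troponins, and the others are Cox6a2, Atp2a1 and Myoz2. Myl2 had a log2 difference of -13.24 (SE 0.24, adjusted p = 6.66e-12), and 2 of the 3 white fat libraries listed it at 0. Myl3, the essential light chain of slow myosin, was at 6098, 7007 and 6961 FPKM in soleus and 0, 0.108 and 0.102 in white fat (log2 difference -12.61, SE 0.08, adjusted p = 1.47e-14). Tnni2, the inhibitory troponin of fast fibres, was at 8477, 10422 and 8892 FPKM in soleus and 0.633, 0.3896 and 0.899 in white fat (log2 difference -12.47, SE 0.50, adjusted p = 1.98e-09). Mylpf, the fast regulatory light chain, had a log2 difference of -12.11. Those of Tnnc1 and Tnnt1, the slow troponins C and T, were -11.64 and -11.11. Genes of slow and of fast fibres thus stood side by side at the head of the soleus list. Cox6a2, a cytochrome oxidase subunit of muscle, was at 2728, 3363 and 2771 FPKM in soleus and 0.358, 0.0992 and 0.2496 in white fat (log2 difference -11.22, SE 0.37, adjusted p = 4.52e-10). Myoz2, a Z-disc protein of slow fibres, had a log2 difference of -10.22, and Atp2a1, a calcium pump, one of -10.95. The ratio of means without white fat 3 went from 14812 to 33117 for Atp2a1.

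**Figure D2:**
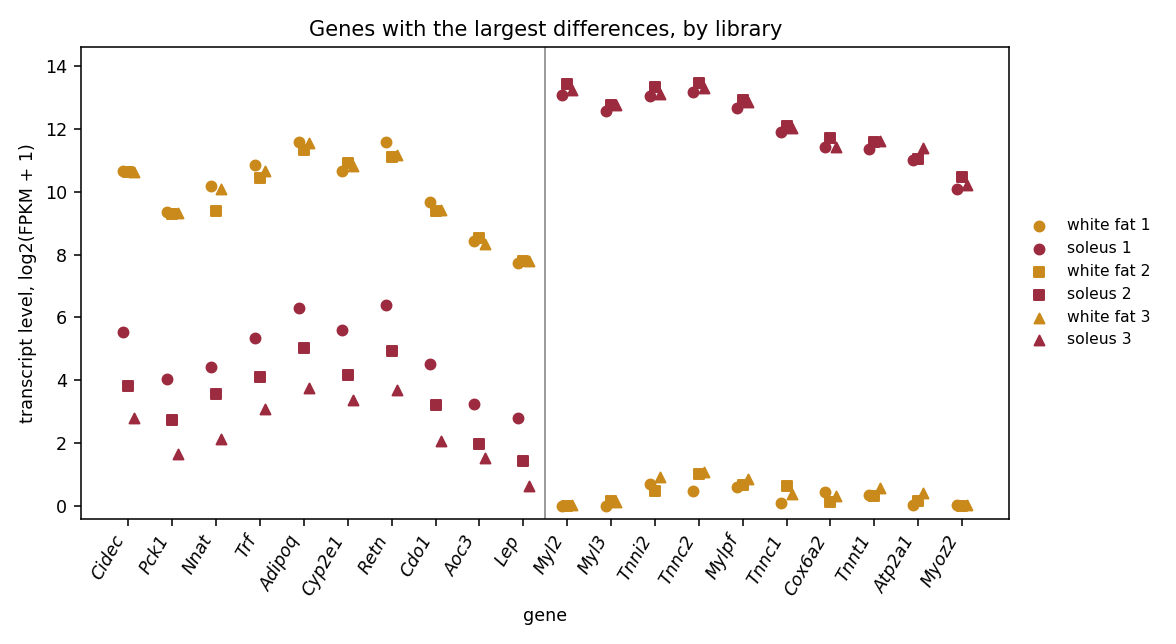
Level of the 10 genes per tissue with the largest differences, in log2(FPKM + 1), with 1 point per library; colours are tissues and shapes are library numbers. The white fat genes lie between 0 and 7 units in soleus, in the order soleus 1, 2 and 3, while the soleus genes lie near 0 in white fat; no gene overlaps between tissues.

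The most abundant transcripts among the members differed in kind. By mean FPKM, the 10 highest members in white fat were Mir703, Adipoq, Dbi, Retn, Hp, Fth1, Cyp2e1, Trf, Retnla and Cidec. Dbi, which carries acyl-CoA in the cytosol, was at 2799.9, 2477 and 2376 FPKM in white fat and 408, 402 and 314 in soleus (log2 difference 2.77, SE 0.13, adjusted p = 8.44e-09). Retnla, a secreted relative of resistin, was at 1616, 1118 and 2066 FPKM in white fat and 55.97, 31.3 and 23.6 in soleus (log2 difference 5.44, SE 0.31, adjusted p = 2.58e-08). Fth1, the heavy chain of ferritin, was at 2206, 1785 and 1931 FPKM in white fat and 1962, 2399 and 2189.9 in soleus. It was not called (log2 difference -0.15, SE 0.14, adjusted p = 0.331). Its ranges overlapped, and its sign turned under TPM scaling and quantile normalization. In soleus the 10 highest were Tnnc2, Myl2, Tnni2, Mylpf, Myl3, Tpm1, Cox8b, Slc25a4, Atp5k and Tnnc1, 7 of them contractile and 3 mitochondrial. Both rankings cover only genes with a value here, and so does this split. Soleus listed Acta1, Ckm and Mb at 0, and the myosin heavy chain genes named above are not analysed. White fat listed Fabp4, Lpl, Car3, Cfd and Scd1 at 0. Tpm1, a tropomyosin of the thin filament, was at 4488, 5661 and 5512 FPKM in soleus and 28.2, 31.1 and 25.9 in white fat (log2 difference -7.47, SE 0.18, adjusted p = 5.79e-11). Slc25a4, which exchanges ATP for ADP across the inner mitochondrial membrane, was at 4097, 4764 and 4454 FPKM in soleus and 198, 169.9 and 165 in white fat (log2 difference -4.63, SE 0.11, adjusted p = 4.62e-11).

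Mir703 was the highest entry in white fat, with 3911, 3252 and 4729 FPKM there and 1566, 1177 and 898 FPKM in soleus (log2 difference 1.73, SE 0.22, adjusted p = 2.47e-05). It is a microRNA locus whose hairpin is 109 bases long, and a scale that divides by length gives large values to short entries; the part of this in its level was not tested. Its mature sequence is shown because it is the only microRNA among the entries named here, from RefSeq on GRCm38.p6 (chr5:98475616-98475636, minus strand), with the seed, bases 2 to 8, in capitals.
mmu-miR-703: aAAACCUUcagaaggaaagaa

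A list of 32 genes that adipocytes use had 27 in the matrix, each of them a member: 23 were higher in white fat and 4 were lower, with a median log2 difference of 4.40. Over all members, for comparison, 54.6% were higher, 30.2% were lower and the median was 0.35. The 4 lower genes were Car3, Fabp4, Lpl and Cfd, and white fat listed each of them at 0 in all 3 libraries. Fabp4, the adipocyte fatty acid binding protein, was at 1272, 827 and 617 FPKM in soleus 1, 2 and 3. Lipoprotein lipase, Lpl, was at 469.6, 490.0 and 594 FPKM there. Car3, a carbonic anhydrase, was at 1198, 947 and 1062 FPKM and Cfd, adipsin, at 339, 168 and 81.6 FPKM. These are among the best known products of adipocytes, and a 0 from the authors' software can be a failed estimate, so no fold is given for them. In soleus, Fabp4 and Cfd followed the order of the adipocyte traces (soleus 1 over 2 over 3), while Lpl was highest in soleus 3. Of the 27, 1 passed the filter through white fat alone and 4 through soleus alone.

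Hormones and other proteins that fat secretes were mostly higher in white fat: 13 of the 17 members of a list of 20 were higher, 2 were lower and 2 were not called (median 3.80, with 3 members of white fat alone and 1 of soleus alone). Lep, the satiety hormone leptin, was at 213, 221 and 223 FPKM in white fat and 5.99, 1.67 and 0.5701 in soleus (log2 difference 6.15, SE 0.44, adjusted p = 1.80e-07). Retn, resistin, was at 3072, 2214 and 2293 FPKM in white fat and 83.8, 29.8 and 11.9 in soleus (log2 difference 6.27, SE 0.51, adjusted p = 5.39e-07). Hp, the haemoglobin scavenger haptoglobin, was at 2267, 1513 and 2441 FPKM in white fat and 64.3, 31.8 and 11.4 in soleus (log2 difference 6.09, SE 0.46, adjusted p = 2.90e-07). The 3 genes did not overlap between tissues, and their soleus values again had the order soleus 1, 2 and 3. The lower genes were Cfd, listed at 0 in white fat, and Nampt. The latter, an enzyme of NAD synthesis, was at 25.4, 28.5 and 27.5 FPKM in white fat and 35.9, 42.1 and 41.3 in soleus (log2 difference -0.53, SE 0.08, adjusted p = 9.48e-05), whose sign turned under TPM scaling. Without soleus 1 the ratio of means rose from 79.7 to 195 for Lep, from 60.4 to 121 for Retn and from 57.9 to 96.01 for Hp.

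Genes of fatty acid synthesis were mostly higher in white fat. Of 17 members of a list of 18 genes, 13 were higher, 3 were lower and 1 was not called (median 3.43, with 1 member of each tissue alone). Fasn, the enzyme that builds palmitate, was at 338, 389 and 208 FPKM in white fat and 10.9, 3.71 and 2.24 in soleus (log2 difference 5.74, SE 0.39, adjusted p = 1.26e-07). Slc25a1, which exports citrate from mitochondria as the carbon source, was at 178, 132 and 127 FPKM in white fat and 6.49, 3.73 and 2.10 in soleus (log2 difference 4.92, SE 0.27, adjusted p = 1.99e-08). Thrsp, a regulator of lipid synthesis, was at 1052, 1088 and 819 FPKM in white fat and 54.7, 23.1 and 18.02 in soleus. Acaca, the acetyl-CoA carboxylase that feeds synthesis, was at 82.2, 89.2 and 58.6 FPKM in white fat and 4.53, 3.79 and 3.82 in soleus (log2 difference 3.92, SE 0.15, adjusted p = 1.25e-09). The white fat values of Fasn and Acaca were lowest in white fat 3, and no value reached the range of the other tissue. The genes counted as lower were Scd1, Mlxipl and Acacb. Scd1, a fatty acid desaturase, was listed at 0 in white fat and was at 94.5, 37.9 and 15.2 FPKM in soleus, the order of the adipocyte traces. As for Fabp4, such a 0 can be a failed estimate, so no fold is given for Scd1. Mlxipl, a glucose-sensing transcription factor, had a log2 difference of -1.45 (adjusted p = 1.09e-06). Acacb, the carboxylase whose product restrains fatty acid oxidation at the mitochondrial surface, was at 20.7, 18.1 and 22.3 FPKM in white fat and 29.6, 28.7 and 38.4 in soleus (log2 difference -0.63, SE 0.12, adjusted p = 4.11e-04). Without soleus 1 the ratio went from 55.4 to 105 for Fasn and from 30.9 to 47.9 for Thrsp.

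Most genes of triglyceride synthesis were higher in white fat. Of 16 members of a list of 17, 12 were higher in white fat, 1 was lower and 3 were not called, with a median of 0.80 and 2 members of white fat alone. Over all members, 54.6% were higher and the median was 0.35, so the list was modestly above the whole. A log2 difference of at least 1 was reached by 7 of its higher members. Behind Pck1 came Mogat1, a monoacylglycerol acyltransferase, at 40.8, 35.6 and 35.9 FPKM in white fat and 1.32, 0.277 and 0.0307 in soleus (log2 difference 4.72, SE 0.28, adjusted p = 4.26e-08). Agpat2, the second acylation step, was at 221, 219.8 and 179 FPKM in white fat and 17.2, 9.73 and 7.97 in soleus (log2 difference 4.10, SE 0.21, adjusted p = 1.46e-08). Dgat2, which adds the last fatty acid, had the highest mean of the list, at 695, 629.9 and 520.4 FPKM in white fat and 90.7, 82.5 and 82.1 in soleus (log2 difference 2.83, SE 0.14, adjusted p = 1.00e-08). Mogat2, a paralog of Mogat1, was lower in white fat, at 1.17, 1.62 and 0.676 FPKM in white fat and 2.50, 1.397 and 2.58 in soleus (log2 difference -0.55, SE 0.18, adjusted p = 0.0132), with values of 0.676 to 2.58 FPKM in the 6 libraries and overlapping ranges. Lipolysis had 7 members of a list of 12, all 7 higher in white fat (median 3.48), and the main triglyceride lipase gene Pnpla2 is not analysed here. Lipe, the hormone-sensitive lipase, was at 486, 477 and 443 FPKM in white fat and 21.6, 10.9 and 8.59 in soleus (log2 difference 5.10, SE 0.24, adjusted p = 7.47e-09). Pde3b, the phosphodiesterase through which insulin restrains lipolysis, was at 61.97, 70.3 and 68.6 FPKM in white fat and 2.02, 0.915 and 0.522 in soleus (log2 difference 5.04, SE 0.20, adjusted p = 1.67e-09). G0s2, an inhibitor of lipolysis, was higher too, at 487, 287 and 386 FPKM in white fat and 89.8, 138 and 84.2 in soleus (log2 difference 1.89, SE 0.25, adjusted p = 2.80e-05). Without soleus 1 the ratio of means went from 68.98 to 243 for Mogat1 and from 58.1 to 93.1 for Pde3b. Perilipins, which coat lipid droplets, went both ways. Plin2 was at 95.5, 100.4 and 85.99 FPKM in white fat against 24.03, 22.8 and 24.5 FPKM in soleus (log2 difference 1.94). Plin3 was at 24.1, 20.3 and 22.2 FPKM against 31.1, 30.4 and 36.8 FPKM (log2 difference -0.54, adjusted p = 4.22e-04).

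Transcription factors of adipocytes were higher in white fat in 11 of 17 members, lower in 3 and not called in 3 (median 1.06). The share higher over all members was 54.6%, with a median of 0.35. Cebpa, a factor of terminal fat cell differentiation, was at 184, 183 and 172 FPKM in white fat and 6.07, 2.83 and 2.095 in soleus (log2 difference 5.36, SE 0.23, adjusted p = 3.58e-09). Pparg, the nuclear receptor that adipocytes need to form, was at 66.7, 69.5 and 63.1 FPKM in white fat and 3.29, 2.13 and 1.43 in soleus (log2 difference 4.40, SE 0.16, adjusted p = 1.05e-09). Ebf1, an early factor of the lineage, had a log2 difference of 3.49. Those 3 genes had low but measurable values in each soleus library, highest in soleus 1. Ppara, the nuclear receptor of fatty acid oxidation, was lower in white fat, at 1.31, 1.41 and 1.67 FPKM in white fat and 8.18, 7.19 and 9.92 in soleus (log2 difference -1.93, SE 0.10, adjusted p = 1.97e-08), as was Mlxipl. Rxrg, a partner of these receptors, was lower by a small margin (log2 difference -0.49, adjusted p = 0.004001), and its sign turned under TPM scaling.

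The contractile genes of slow and fast fibres were read in soleus at levels far above white fat. In the list of slow fibre genes 8 of 10 members, and in that of fast fibre genes 7 of 11, passed the filter through soleus alone, so their difference is given as a description. Summed over the genes measured, slow fibre genes came to 55.8 to 57.5 FPKM in white fat and 25174 to 29859.9 FPKM in soleus, and fast fibre genes to 45.5 to 50.3 FPKM in white fat and 35017 to 42192 FPKM in soleus. Within soleus both forms of a protein could be compared per length. Of troponin C, Tnnc2 made up 70.6% to 72.2% and the slow form Tnnc1 27.8% to 29.4%. Of the calcium pumps that refill the reticulum, the fast form Atp2a1 made up 71.8% to 73.4% and Atp2a2, the form of slow fibres, heart and other cells, 26.5% to 28.1%. In white fat the share of Atp2a2 was 87.3% to 89.7%, since Atp2a1 was at 0.0219, 0.116 and 0.325 FPKM there and Atp2a2 at 26.8, 26.4 and 27.8 FPKM. The fast troponin T gene Tnnt3 was listed at 0 in soleus, so no share of troponin T is given.

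Of the sarcomere genes that fibres share, 21 of 25 were members: 19 were higher in soleus and 2 in white fat, with 16 and 2 of the 21 passing through 1 tissue alone. Mybpc1, a myosin binding protein of the thick filament, was at 819, 846 and 1058 FPKM in soleus and 0.0258, 0.0119 and 0.01998 in white fat (log2 difference -9.79, SE 0.29, adjusted p = 2.11e-10). Myot, which crosslinks actin in the Z-disc, was at 755, 847 and 881 FPKM in soleus and 0.0445, 0 and 0.0228 in white fat (log2 difference -9.66, SE 0.21, adjusted p = 2.30e-11). Cryab, a small heat shock protein, had the highest mean in the list, at 1323, 1612 and 1502 FPKM in soleus and 63.8, 56.8 and 55.9 in white fat (log2 difference -4.63, SE 0.10, adjusted p = 2.58e-11). The 2 genes on the other side were Acta1, the actin of skeletal muscle, at 16.7, 16.9 and 34.6 FPKM in white fat, and Tpm2, a tropomyosin, at 3.501, 4.05 and 3.55 FPKM. Soleus listed both at 0 in its 3 libraries. Acta1 is one of the main actins of muscle fibres, and Ckm, the creatine kinase of muscle, and Mb, myoglobin, were also listed at 0 in each soleus library. No fold is given for these genes. Csrp3 and Lmod2, a Z-disc and a thin filament protein, were listed at 0 in white fat and were at 759, 1096 and 834 FPKM and 278, 299 and 293 FPKM in soleus.

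Calcium handling followed the contractile genes: 15 of 16 members of its list were higher in soleus and 1 in white fat, 12 of them passing through soleus alone. Casq1, which stores calcium in the reticulum, was at 533, 578 and 709 FPKM in soleus and 0.134, 0.106 and 0.156 in white fat (log2 difference -9.06, SE 0.40, adjusted p = 3.75e-09). Hrc, another calcium binding protein of the reticulum, was at 252, 258 and 307 FPKM in soleus and 0.0144, 0.0398 and 0.03897 in white fat (log2 difference -8.04, SE 0.20, adjusted p = 7.83e-11). Subunits of the sarcoglycan complex, which ties the fibre membrane to the dystrophin cytoskeleton, differed among themselves. Sgca was at 102, 103 and 96.7 FPKM in soleus and 0, 0.0363 and 0.0253 in white fat (log2 difference -6.64, SE 0.07, adjusted p = 6.76e-13). Over all members, 30.2% were higher in soleus and 54.6% in white fat. In the dystrophin list as a whole 10 of 14 members were higher in soleus and 4 in white fat (median -1.46, with 3 of soleus alone). The 4 included Utrn, the widely expressed relative of dystrophin, at 19.5, 20.7 and 17.3 FPKM in white fat and 2.94, 2.48 and 2.898 in soleus (log2 difference 2.42, SE 0.08, adjusted p = 6.75e-10). Sntb1, a syntrophin, was at 27.8, 32.3 and 24.9 FPKM in white fat and 1.21, 0.791 and 0.561 in soleus (log2 difference 3.99, SE 0.16, adjusted p = 1.81e-09). Sgcd, a sarcoglycan found in many cells, had a log2 difference of 1.26.

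Transcription regulators of muscle were read at lower levels than the fibre proteins. All 18 members of a list of 20 were higher in soleus, 12 of them passing through soleus alone. Vgll2, a cofactor of TEAD proteins, was at 67.7, 90.2 and 90.5 FPKM in soleus and 0, 0 and 0.00841 in white fat (log2 difference -6.37, SE 0.10, adjusted p = 3.02e-12). Tbx15, a T-box factor, was at 22.4, 27.8 and 31.2 FPKM in soleus and 0.03797, 0.0132 and 0.0405 in white fat (log2 difference -4.76, SE 0.12, adjusted p = 5.24e-11). The 4 myogenic factors of the MyoD family were listed at 0 in each white fat library. In soleus Myf6, the form of mature fibres, was at 54.6, 67.5 and 54.5 FPKM and Myod1 at 10.2, 11.8 and 11.2 FPKM. At the neuromuscular junction 9 of 11 members were higher in soleus, 1 was higher in white fat and 1 was not called, with 7 passing through soleus alone. Colq, which anchors acetylcholinesterase, was at 9.12, 7.76 and 8.24 FPKM in soleus and 0.0372, 0.0172 and 0.0188 in white fat (log2 difference -3.19, SE 0.07, adjusted p = 2.50e-11). Rapsn, which clusters the acetylcholine receptor, was at 15.7, 17.4 and 16.8 FPKM in soleus and 1.16, 0.821 and 0.826 in white fat (log2 difference -3.19, SE 0.09, adjusted p = 1.37e-10). Agrn, the clustering signal agrin that basement membranes of many tissues contain, was the gene higher in white fat, at 3.61, 3.36 and 3.75 FPKM in white fat and 2.25, 2.09 and 2.18 in soleus (log2 difference 0.53, SE 0.07, adjusted p = 2.42e-05).

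Genes of oxidative metabolism were higher in soleus along the respiratory chain, and in the lists of the citrate cycle and complexes I to III no member passed the filter through 1 tissue alone. In the citrate cycle list 22 of 23 members were lower in white fat and 1 was not called (median -1.61). Idh2, the mitochondrial NADP-linked isocitrate dehydrogenase, was at 65.5, 46.8 and 58.4 FPKM in white fat and 591, 688 and 713 in soleus (log2 difference -3.53, SE 0.15, adjusted p = 2.46e-09). Mdh2, the last step of the cycle, was at 235, 197 and 199 FPKM in white fat and 815, 915 and 917 in soleus (log2 difference -2.07, SE 0.11, adjusted p = 1.22e-08). In the list of complex I genes, 35 of 35 members were lower in white fat, by 1.16 to 3.04 log2 units (median -2.14). Ndufb5 was at 72.5, 56.8 and 64.4 FPKM in white fat and 496, 636 and 490.0 in soleus (log2 difference -3.04, SE 0.12, adjusted p = 2.16e-09). Ndufa4, the highest of the list, was named for complex I, but its protein is now assigned to complex IV. It was at 719, 592 and 655 FPKM in white fat and 2878, 3476 and 2723 in soleus (log2 difference -2.20, SE 0.13, adjusted p = 4.96e-08). In complexes II and III 14 of 14 members were lower (median -2.19), with Uqcrq at 340.2, 248 and 274 FPKM in white fat and 1718, 2084 and 1678 in soleus. Sdhb, the iron-sulfur subunit of complex II, was at 152, 128 and 144 FPKM in white fat and 735, 899 and 737 in soleus. The tissues did not overlap in any of the 35 and 14 genes, and their sign was the same under the 4 other scalings. Against this, 30.2% of all members were lower in white fat, and 86.2% of all members did not overlap.

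Complex IV and the ATP synthase held the exceptions. In complex IV 13 of 15 members were lower in white fat and 2 were higher (median -2.03, with 1 member of soleus alone). In the ATP synthase list 14 of 15 were lower and 1 was higher (median -2.14). Atp5k, a small subunit of the synthase, was at 812, 598 and 657 FPKM in white fat and 4118, 4918 and 3900.2 in soleus (log2 difference -2.65, SE 0.15, adjusted p = 2.66e-08). Atp5g1, one of the genes for the rotor ring, was at 11.6, 7.46 and 8.32 FPKM in white fat and 254, 330.2 and 262 in soleus (log2 difference -4.82, SE 0.15, adjusted p = 3.00e-10). Atpif1, the inhibitor of the synthase, was the gene higher in white fat, at 67.6, 63.5 and 64.8 FPKM in white fat and 45.3, 55.2 and 47.9 in soleus (log2 difference 0.40, SE 0.09, adjusted p = 0.00124). Its sign turned under median of ratios scaling. The 2 higher genes of complex IV were Cox6a1, at 576, 451 and 532 FPKM in white fat and 113, 110.4 and 91.5 in soleus (log2 difference 2.30, SE 0.12, adjusted p = 1.81e-08), and Cox8a. The latter was at 757, 546 and 623 FPKM in white fat and 143, 146 and 120.3 in soleus (log2 difference 2.22, SE 0.13, adjusted p = 4.47e-08). Both have a paralog that muscle uses in their place. Cox7a1, another muscle form, was at 14.8, 8.402 and 42.9 FPKM in white fat and 3244, 3886 and 3199.9 in soleus (log2 difference -7.52, SE 0.42, adjusted p = 2.47e-08). White fat 3 held the highest white fat value of Cox7a1 and of Cox8b, as it did of Ucp1. Without it the ratio of means between tissues went from 156 to 296 for Cox7a1 and from 71.3 to 110.0 for Cox8b. Brown fat also uses these 2 subunits, and the part of brown fat cells in the white fat values was not tested.

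Fatty acid oxidation was higher in soleus by a smaller margin. Of 15 members of a list of 20, 12 were lower in white fat, 1 was higher and 2 were not called (median -0.88). The sign of 9 of the 15 was the same under the 4 other scalings. Hadhb, a chain of the trifunctional enzyme, was at 13.3, 12.6 and 14.2 FPKM in white fat and 47.97, 54.0 and 46.6 in soleus (log2 difference -1.81, SE 0.08, adjusted p = 4.72e-09), and Hadha, its other chain, had a log2 difference of -1.80. Acadm, a dehydrogenase for medium chains and the highest of the list, was at 175, 166 and 177 FPKM in white fat and 309.6, 319 and 329.5 in soleus (log2 difference -0.88, SE 0.09, adjusted p = 2.81e-06). Cpt1a, the liver-type gate for fatty acids into mitochondria, went the other way, at 15.3, 15.5 and 15.5 FPKM in white fat and 2.48, 1.74 and 1.97 in soleus (log2 difference 2.43, SE 0.09, adjusted p = 1.38e-09), and the muscle form Cpt1b is not analysed here.

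**Figure D3:**
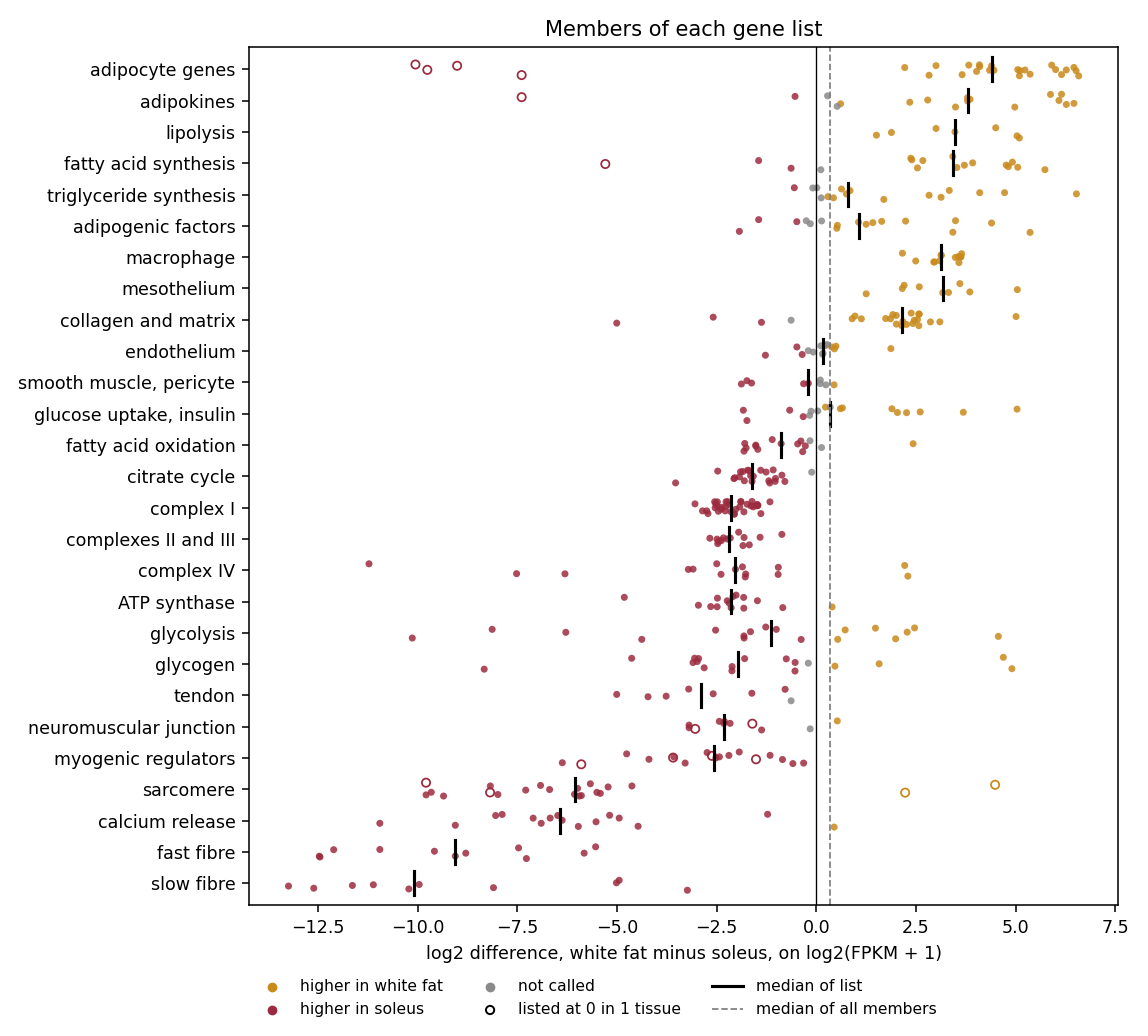
Log2 difference (white fat minus soleus, on log2(FPKM + 1)) of each member of 27 gene lists; points are genes, coloured by call, open circles are genes listed at 0 in each library of 1 tissue, black bars are list medians and the dashed line is the median of all members (0.35). Respiratory chain and citrate cycle genes lie to the left of 0 apart from Cox6a1, Cox8a and Atpif1, and macrophage genes to the right, as do most adipocyte and matrix genes; in the lists of fibre, calcium release and mesothelial genes most members passed the filter through 1 tissue.

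Glycolysis and glycogen use were split by paralog. Of 18 glycolysis members, 11 were lower in white fat and 7 were higher (median -1.13, with 2 of soleus alone). Of 18 glycogen members 13 were lower, 4 were higher and 1 was not called (median -1.95, with 1 of each tissue alone). Aldoa, the aldolase of muscle and most other cells, was at 586, 593 and 481 FPKM in white fat and 3048, 3311 and 3178 in soleus (log2 difference -2.53, SE 0.12, adjusted p = 7.81e-09). Pfkfb3, which makes the activator of phosphofructokinase, was higher in white fat, at 112, 111 and 124 FPKM in white fat and 5.51, 3.096 and 3.46 in soleus (log2 difference 4.57, SE 0.18, adjusted p = 2.07e-09). Gyg, the primer of glycogen, was at 35.4, 37.5 and 32.3 FPKM in white fat and 283, 325 and 312 in soleus (log2 difference -3.09, SE 0.10, adjusted p = 3.14e-10). Ppp1r3a, which ties protein phosphatase 1 to glycogen in muscle, was at 23.3, 23.8 and 24.4 FPKM in soleus and 0.00447, 0 and 0.00173 in white fat (log2 difference -4.63, SE 0.07, adjusted p = 2.42e-12). Gys2, the liver form of glycogen synthase, was higher in white fat at 2.32, 4.15 and 1.19 FPKM in white fat and 0.261, 0.0763 and 0.0374 in soleus (log2 difference 1.58, SE 0.25, adjusted p = 1.14e-04). The ratio of means without soleus 1 went from 20.4 to 44.9 for Gys2.

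Within several isozyme families the 2 tissues used different genes for the same reaction, and since FPKM is per length, the shares of a family's summed FPKM can be compared. Of phosphoglycerate mutase, the muscle form Pgam2 made up 99.9% in soleus and 1.104% in white fat (library range 0% to 3.31%). Pgam2 was at 1128, 1258 and 1154 FPKM in soleus and 0, 0 and 0.151 in white fat, and Pgam1 at 1.03, 0.806 and 0.884 FPKM in soleus and 4.21, 4.39 and 4.399 in white fat. The white fat level of Pgam1 is low for a glycolytic enzyme, since Aldoa averaged 553 FPKM there. Whether Pgam1 was read in full was not tested, so the shares of this pair are uncertain. Of glycogen phosphorylase, which releases glucose units from glycogen, Pygm made up 99.3% in soleus and 0.632% in white fat, where the brain and liver forms Pygb and Pygl made up 59.6% and 39.8%. Of enolase, Eno3 made up 99.2% in soleus and 7.23% in white fat, and of phosphofructokinase Pfkm made up 99.2% and 16.4%. In each of these 4 families the other forms were also lower in soleus than in white fat: Pgam1, Pygl, Pygb, Eno1, Pfkl and Pfkp were lower there by 1.48 to 4.91 log2 units. The ratio of means without soleus 1 went from 48.3 to 75.98 for Pygl. Lactate dehydrogenase differed in another way. Ldha was at 411, 347 and 298 FPKM in white fat and 436, 477 and 451 in soleus (log2 difference -0.38, adjusted p = 0.0129), with the sign turning under TPM scaling and quantile normalization. Ldhb, the form of oxidative tissue, was at 34.3, 26.3 and 30.2 FPKM in white fat and 569, 721 and 655 in soleus (log2 difference -4.38, SE 0.12, adjusted p = 1.07e-10). Ldhb made up 58.7% of the pair in soleus and 7.98% in white fat. Hexokinase kept the same leading form in both, with Hk2 at 96.1% in soleus and 77.8% in white fat.

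The same exchange ran through cytochrome oxidase and nucleotide handling. Cox6a2 made up 96.6% of subunit 6a in soleus and 0.0436% in white fat. Cox8b made up 97.2% of subunit 8 in soleus and 9.16% in white fat (library range 5.603% to 15.3%). Cox7a1 made up 87.9% of subunit 7a in soleus and 13.6% in white fat (range 6.92% to 24.8%). The upper end of both white fat ranges is white fat 3. Subunit 4 showed no such exchange: Cox4i1 made up 99.8% in soleus and 99.6% in white fat. Slc25a4 made up 99.1% of the carrier pair in soleus and 55.1% in white fat. Its partner Slc25a5 was higher in white fat, at 159, 138 and 137 FPKM against 40.6, 43.7 and 42.8 FPKM (log2 difference 1.75, SE 0.09, adjusted p = 9.65e-09). Elongation factor 1 alpha, which delivers tRNA to the ribosome, changed from Eef1a1 in white fat to 81.2% Eef1a2 in soleus. Eef1a1 was at 885, 773 and 858 FPKM in white fat and 166, 146 and 138 in soleus, and Eef1a2 at 598, 649 and 713 FPKM in soleus and 0, 0 and 0.0362 in white fat. Caveolins, the coat of surface pits that adipocytes hold in large numbers, differed as well. Cav1 was at 1105, 1109 and 963 FPKM in white fat and 65.4, 44.98 and 44.9 in soleus, and in soleus the muscle form Cav3 made up 51.3%. Of the carboxylases, Acacb made up 88.7% in soleus and 21.5% in white fat.

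**Figure D4:**
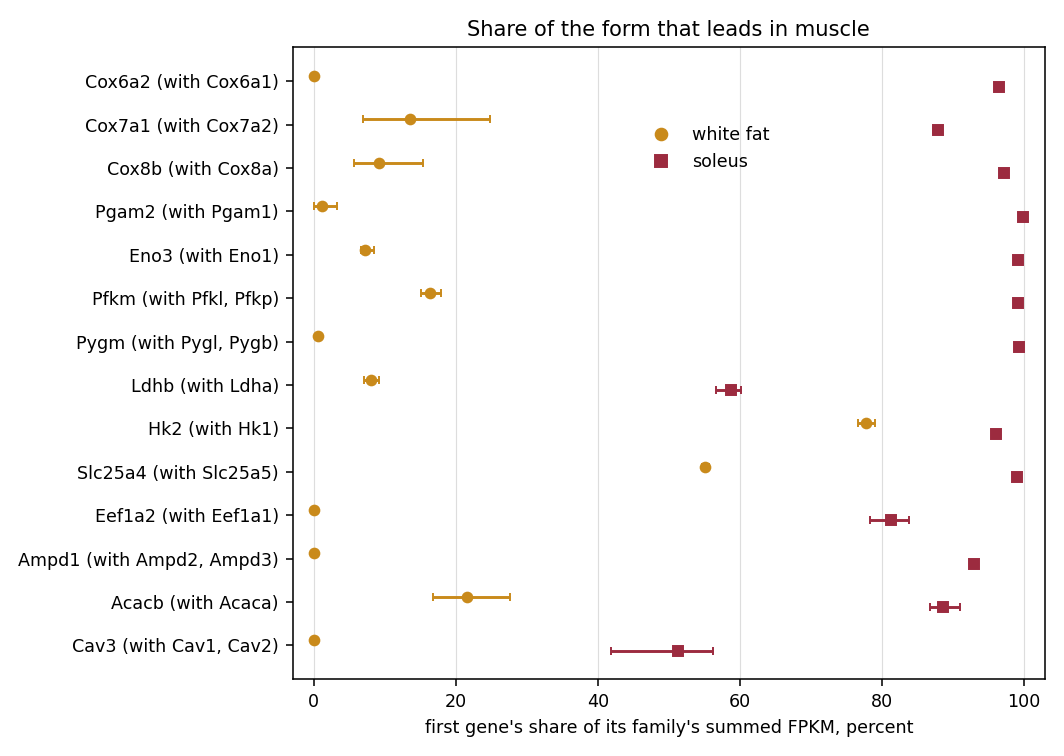
Share of the summed FPKM of an isozyme family held by the gene named first, in percent, in white fat (circles) and soleus (squares); points are means of 3 libraries and bars run from the lowest to the highest library. The shares of Cox6a2, Pgam2, Pygm and Eno3 are above 95% in soleus and under 10% in white fat, while Hk2 is above 70% in both.

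The 250 bases before the start of 3 of these pairs are shown, the form that leads in soleus first, because the members of a pair make the same kind of protein and the tissues divide between them. The 3 pairs were picked after the motifs were seen, and each has CAGCTG in its muscle form. They come from RefSeq on GRCm38.p6, 5′ to 3′ on the strand of the gene. Capitals mark CAGCTG, a form of the E-box that MyoD-family proteins can bind, the MEF2 motif, and GGGCGG, the GC box, each searched on both strands with no overlaps between them in these windows.
Pgam2 (chr11:5803797-5804046, minus strand): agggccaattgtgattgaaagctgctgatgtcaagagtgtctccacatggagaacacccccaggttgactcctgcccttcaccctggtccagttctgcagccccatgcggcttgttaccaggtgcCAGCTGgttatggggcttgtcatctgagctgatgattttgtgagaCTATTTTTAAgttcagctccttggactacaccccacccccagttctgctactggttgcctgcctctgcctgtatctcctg
Pgam1 (chr19:41911621-41911870, plus strand): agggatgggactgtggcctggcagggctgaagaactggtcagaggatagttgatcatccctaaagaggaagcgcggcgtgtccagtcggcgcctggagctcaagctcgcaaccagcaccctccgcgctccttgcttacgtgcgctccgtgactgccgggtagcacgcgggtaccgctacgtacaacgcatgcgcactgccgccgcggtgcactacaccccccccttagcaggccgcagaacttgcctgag
Pygm (chr19:6384158-6384407, plus strand): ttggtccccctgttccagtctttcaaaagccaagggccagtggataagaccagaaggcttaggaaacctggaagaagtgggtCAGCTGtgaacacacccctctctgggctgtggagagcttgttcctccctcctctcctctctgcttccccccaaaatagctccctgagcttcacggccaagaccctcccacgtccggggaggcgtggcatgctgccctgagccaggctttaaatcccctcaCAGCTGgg
Pygl (chr12:70227684-70227933, minus strand): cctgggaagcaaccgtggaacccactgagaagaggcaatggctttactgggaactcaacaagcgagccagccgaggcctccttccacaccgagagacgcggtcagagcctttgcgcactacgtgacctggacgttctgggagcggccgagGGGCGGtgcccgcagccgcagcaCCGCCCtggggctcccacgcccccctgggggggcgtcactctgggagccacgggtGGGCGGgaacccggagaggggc
Cox8b (chr7:140900447-140900696, minus strand): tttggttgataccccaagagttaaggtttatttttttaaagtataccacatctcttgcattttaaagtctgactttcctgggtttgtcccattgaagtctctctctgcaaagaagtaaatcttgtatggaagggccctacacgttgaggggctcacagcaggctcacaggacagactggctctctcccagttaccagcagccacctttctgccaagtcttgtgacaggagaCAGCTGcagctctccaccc
Cox8a (chr19:7217617-7217866, minus strand): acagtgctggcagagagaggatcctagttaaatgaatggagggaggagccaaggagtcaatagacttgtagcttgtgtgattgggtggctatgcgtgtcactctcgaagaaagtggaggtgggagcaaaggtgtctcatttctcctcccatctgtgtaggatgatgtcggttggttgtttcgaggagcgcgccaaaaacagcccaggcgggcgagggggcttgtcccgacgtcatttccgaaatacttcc

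Of the 3 muscle forms, Pgam2 had CAGCTG at 125 to 120 bases before the start and a MEF2 motif at 80 to 71, Pygm had CAGCTG at 168 to 163 and at 8 to 3, and Cox8b had it at 19 to 14. The windows of Pgam1 and Cox8a held none of the motifs, and that of Pygl held GGGCGG or its reverse complement at 3 places. Other forms that lead in soleus differed: Cav3 held CAGCTG, Eef1a2 and Hk2 held GGGCGG alone, and Cox7a1, Slc25a4 and Ldhb held none of these motifs. Of white fat genes, Adipoq and Pck1 held CAGCTG, and Ckb, the brain form of creatine kinase, held a MEF2 motif that overlaps TATAAA. Over the 194 members at least 3 log2 units higher in soleus that had exactly 1 listed promoter, 43 (22.2%) held CAGCTG in these 250 bases, against 11.5% of 6040 members and 12.7% of 22862 genes with 1 listed promoter. The MEF2 motif was in 23 of the 194 (11.9%), against 1.75% of the members and 3.11% of all. Over the 197 members at least 3 log2 units higher in white fat, CAGCTG was in 30 (15.2%) and the MEF2 motif in 3 (1.52%). GGGCGG was in 41.2% of the soleus set, 51.8% of the white fat set, 62.9% of the members and 32.4% of all, and TATAAA, searched on the strand of the gene, was in 7.73%, 11.7%, 4.09% and 8.68%. TTNNGCAAT, a core of the C/EBP site, was in 2.03% of the white fat set, 1.03% of the soleus set, 1.06% of the members and 1.96% of all. These are counts of letters in a window with no test, and a match is not a bound site.

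Phosphocreatine and adenine nucleotide genes were split, with 7 of 12 members lower in white fat and 5 higher (median -1.85, with 2 of soleus alone). Over all members, 30.2% were lower and 54.6% higher. Ckm, listed at 0 in soleus, is not a member. Ampd1, the AMP deaminase of muscle, was at 152, 155 and 179 FPKM in soleus and 0, 0 and 0.0158 in white fat (log2 difference -7.34, SE 0.17, adjusted p = 3.15e-11), and made up 92.96% of its family in soleus. Adssl1, the muscle adenylosuccinate synthase, was at 378, 408 and 395 FPKM in soleus and 2.34, 1.29 and 2.97 in white fat (log2 difference -6.98, SE 0.17, adjusted p = 5.57e-11). Ckmt2, the mitochondrial creatine kinase of muscle, was at 1776, 2058 and 2124 FPKM in soleus and was listed at 0 in white fat. On the other side, Gamt, the last enzyme of creatine synthesis, was at 29.8, 24.05 and 19.9 FPKM in white fat and 4.06, 3.64 and 4.29 in soleus (log2 difference 2.34, SE 0.14, adjusted p = 3.42e-08). Of the genes for oxygen and carbon dioxide, 7 of 11 were lower in white fat and 4 were higher (median -1.12, with 3 of soleus alone). Among the 7 was Car3, listed at 0 in white fat, which can be a failed estimate. Mb, listed at 0 in soleus, is not a member. Egln3, an oxygen sensor, was at 1.16, 1.36 and 1.04 FPKM in white fat and 32.5, 40.7 and 38.5 in soleus (log2 difference -4.13, SE 0.12, adjusted p = 1.99e-10). Hif1a, the factor that such sensors degrade, was at 14.5, 14.8 and 14.8 FPKM in white fat and 5.92, 5.34 and 4.64 in soleus (log2 difference 1.32, SE 0.08, adjusted p = 7.35e-08). Fabp3, the fatty acid binding protein of muscle, was at 297, 288 and 283 FPKM in soleus and 0.298, 0.312 and 0.437 in white fat (log2 difference -7.75, SE 0.18, adjusted p = 3.74e-11). Fabp5, the form of skin and other cells, was at 45.8, 63.8 and 42.4 FPKM in white fat and 7.63, 6.896 and 5.89 in soleus (log2 difference 2.71, SE 0.15, adjusted p = 2.66e-08).

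Glucose uptake and insulin signalling were near the middle of all genes, with 9 of 17 members higher in white fat, 4 lower and 4 not called (median 0.35, with 2 of white fat alone, turning to -0.04 under median of ratios scaling). Slc2a4, the insulin-responsive glucose transporter, was at 45.5, 48.4 and 39.1 FPKM in white fat and 152, 165 and 161 in soleus (log2 difference -1.83, SE 0.09, adjusted p = 8.72e-09). Irs3, an insulin receptor substrate of rodent fat, was at 16.4, 14.5 and 14.5 FPKM in white fat and 0.429, 0.149 and 0.186 in soleus (log2 difference 3.69, SE 0.25, adjusted p = 1.32e-07), with the ratio of means going from 59.4 to 90.3 for Irs3 without soleus 1. Pik3r1, a regulatory subunit of PI3 kinase, was at 34.8, 60.99 and 27.6 FPKM in white fat and 5.52, 4.57 and 6.72 in soleus (log2 difference 2.61, SE 0.26, adjusted p = 3.35e-06). Grb14, an adaptor that inhibits the insulin receptor, was lower in white fat, at 11.1, 8.18 and 11.8 FPKM in white fat and 31.3, 41.6 and 37.6 in soleus (log2 difference -1.74, SE 0.15, adjusted p = 1.06e-06). Among kinases that shut pyruvate dehydrogenase, Pdk4 was at 16.7, 16.5 and 30.5 FPKM in white fat and 387, 303 and 404 in soleus (log2 difference -4.09, SE 0.21, adjusted p = 1.20e-08). Pdk2 was at 30.3, 24.9 and 36.8 FPKM in white fat and 164, 173 and 183 in soleus (log2 difference -2.48, SE 0.12, adjusted p = 1.06e-08). Pdk3 was higher in white fat, at 6.12, 5.52 and 6.35 FPKM in white fat and 0.828, 0.5502 and 0.664 in soleus (log2 difference 2.06, SE 0.08, adjusted p = 1.55e-09). The Pdk genes are given as an isozyme family. The tissues did not overlap in any of the genes named here, as in 86.2% of all members. The list of glucose uptake and insulin genes as a whole was balanced.

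Genes of brown fat thermogenesis gave 8 of 12 members lower in white fat, 2 higher and 2 not called (median -1.59, with 1 of white fat alone and 4 of soleus alone), and 7 of the 19 genes in the matrix did not reach the filter. Ucp1, the uncoupling protein that defines brown adipocytes, was at 7.81, 1.45 and 35.7 FPKM in white fat and 4.14, 1.41 and 0.617 in soleus and was not called (log2 difference 1.77, SE 0.77, adjusted p = 0.0527). Its ranges overlapped, and white fat 3 held most of the white fat signal. Its ratio of means went from 7.28 to 2.25 without white fat 3 and to 14.7 without soleus 1. Cidea, a droplet protein of brown fat, was at 7.204, 3.53 and 26.5 FPKM in white fat and 8.78, 6.84 and 6.25 in soleus (log2 difference 0.29, SE 0.49, adjusted p = 0.587) and was again highest in white fat 3. Esrrg, a nuclear receptor of oxidative tissue, was at 11.6, 16.1 and 16.9 FPKM in soleus and 0.149, 0.0449 and 0.201 in white fat (log2 difference -3.79, SE 0.13, adjusted p = 8.37e-10). Adrb3, the adrenergic receptor of fat cells, was higher in white fat, at 141, 154 and 119 FPKM in white fat and 3.87, 0.831 and 0.367 in soleus (log2 difference 5.91, SE 0.36, adjusted p = 4.67e-08). Without soleus 1 its ratio of means went from 81.7 to 230.2. The potassium channel gene Kcnk3 was higher too (log2 difference 1.63, adjusted p = 3.66e-09). The lower genes include Cox8b and Cox7a1, which muscle and brown fat share.

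Proteins that muscle secretes were not higher in soleus as a group: of 10 members, 4 were higher in white fat, 3 were lower and 3 were not called (median 0.30, with 1 of soleus alone, turning to -0.10 under quantile normalization). Fndc5, the precursor of irisin, was at 69.04, 98.6 and 104 FPKM in soleus and 1.10, 0.833 and 1.47 in white fat (log2 difference -5.41, SE 0.21, adjusted p = 1.71e-09). Ostn, musclin, was at 25.7, 32.97 and 28.3 FPKM in soleus and 0, 0 and 0.0195 in white fat (log2 difference -4.89, SE 0.09, adjusted p = 5.31e-12). Vegfa, a growth factor of vessels, was at 94.4, 82.4 and 80.5 FPKM in soleus and 27.4, 33.5 and 24.7 in white fat (log2 difference -1.56, SE 0.11, adjusted p = 1.69e-07). Igf1, Sparc and Dcn stood on the other side. Igf1, a growth factor, was at 69.01, 59.1 and 59.4 FPKM in white fat and 4.39, 2.95 and 3.91 in soleus (log2 difference 3.75, SE 0.18, adjusted p = 6.97e-09). Sparc, a collagen-binding protein, was at 1134, 1590.3 and 1315 FPKM in white fat and 270.2, 205 and 201 in soleus (log2 difference 2.57, SE 0.16, adjusted p = 4.45e-08). The group named for muscle secretion thus held its largest differences in both directions.

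Connective tissue genes were higher in white fat: 21 of 25 members of the matrix list were higher, 3 were lower and 1 was not called (median 2.14, with 2 of soleus alone). The share higher over all members was 54.6%. Ccdc80, a matrix protein of adipocytes and stroma, was at 431, 429 and 429 FPKM in white fat and 17.6, 10.7 and 9.84 in soleus (log2 difference 5.01, SE 0.19, adjusted p = 1.27e-09). Fn1, fibronectin, was at 107, 135 and 147 FPKM in white fat and 15.6, 11.3 and 16.01 in soleus (log2 difference 3.10, SE 0.15, adjusted p = 9.52e-09). Col4a1, a basement membrane collagen, was at 149.9, 208 and 167 FPKM in white fat and 23.6, 18.2 and 28.1 in soleus (log2 difference 2.86, SE 0.16, adjusted p = 2.41e-08). The lower genes were Thbs4, Comp and Mgp, and the first 2 also stand in the tendon list. Tendon genes were higher in soleus in 7 of 8 members, with 1 not called and 6 passing through soleus alone. Thbs4, a thrombospondin of tendon, was at 42.2, 31.3 and 24.7 FPKM in soleus and 0.0107, 0.0443 and 0.0206 in white fat (log2 difference -5.01, SE 0.15, adjusted p = 2.48e-10). Scx, a transcription factor of tendon cells, was at 13.2, 14.1 and 13.7 FPKM in soleus and 0.0345, 0.0957 and 0.0937 in white fat (log2 difference -3.77, SE 0.07, adjusted p = 6.24e-12). Tnmd, tenomodulin, was at 27.6, 21.7 and 14.4 FPKM in soleus and 0.143, 0.119 and 0.1999 in white fat (log2 difference -4.22, SE 0.17, adjusted p = 2.46e-09). Scx was nearly level over the 3 soleus libraries, whereas Thbs4, Tnmd and Comp were highest in soleus 1 and lowest in soleus 3. The summed tendon genes came to 18.5 to 26.6 FPKM in white fat and 83.2 to 170.4 FPKM in soleus. Progenitor markers were higher in white fat in 6 of 8 members and lower in 2 (median 1.00, with 1 of soleus alone). Over all members, 54.6% were higher and 30.2% lower, so these few genes are not read as a result about progenitors. Pdgfra, a receptor of stromal progenitors, was at 14.5, 12.7 and 15.5 FPKM in white fat and 3.75, 2.64 and 2.99 in soleus (log2 difference 1.89, SE 0.11, adjusted p = 2.36e-08). Gsn, an actin-severing protein of the progenitor list counted as lower, was listed at 0 in white fat and was at 379, 282 and 253 FPKM in soleus. As for Fabp4, such a 0 can be a failed estimate, so no fold is given for Gsn.

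Immune cell markers were higher in white fat. All 13 macrophage members were higher (median 3.14, with 2 of white fat alone), and their sum was 576 to 723 FPKM in white fat and 42.5 to 57.9 FPKM in soleus. Mrc1, the mannose receptor of tissue macrophages, was at 27.1, 30.3 and 35.2 FPKM in white fat and 1.86, 1.12 and 1.79 in soleus (log2 difference 3.63, SE 0.14, adjusted p = 1.28e-09). C1qb, a complement component that macrophages make, was at 139, 121 and 156 FPKM in white fat and 12.2, 8.796 and 10.03 in soleus (log2 difference 3.63, SE 0.13, adjusted p = 8.99e-10). Lgals3, galectin 3, was at 42.1, 45.9 and 39.7 FPKM in white fat and 3.19, 2.72 and 1.67 in soleus (log2 difference 3.65, SE 0.14, adjusted p = 1.71e-09). These 3 genes were above 1 FPKM in each soleus library and did not overlap between tissues. Of the lymphocyte and antigen presentation list 4 of 15 genes in the matrix were members, all 4 higher in white fat and 1 of them of white fat alone. H2-Aa, a chain of MHC class II, was at 239, 217 and 358 FPKM in white fat and 23.7, 15.4 and 13.4 in soleus (log2 difference 3.88, SE 0.25, adjusted p = 6.98e-08). It was highest in white fat 3, as were H2-Ab1 and H2-Eb1. The T and B cell genes Cd3e, Cd8a and Ms4a1 were under 1 FPKM in each of the 6 libraries and are not members. Mesothelial markers were read in white fat: 9 genes passed the filter, each through white fat alone, so their differences and adjusted p-values are given as a description. Upk3b, a surface protein of mesothelium, was at 50.1, 43.9 and 33.2 FPKM in white fat and 0.932, 0.0414 and 0.0835 in soleus (log2 difference 5.05, SE 0.22, adjusted p = 3.38e-09). Msln, mesothelin, was at 22.6, 20.9 and 12.6 FPKM in white fat and 0.665, 0.176 and 0.192 in soleus (log2 difference 3.85, SE 0.20, adjusted p = 1.16e-08). Both were lowest in white fat 3. Soleus 1 held most of the soleus signal of Upk3b, and without it the ratio of means went from 120.3 to 679 for Upk3b and from 54.3 to 102 for Msln. Mesothelium covers the fat depots inside the body cavity, and the labels do not give the depot.

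Vessel genes were close to even. Of 14 endothelial members 4 were higher in white fat, 3 were lower and 7 were not called (median 0.16, which turned to -0.03, -0.21 and -0.13 under upper quartile, median of ratios and quantile scaling). Their sum was 104 to 154 FPKM in white fat and 109 to 118 FPKM in soleus. Cldn5, a tight junction protein, was at 23.8, 36.2 and 27.97 FPKM in white fat and 6.25, 7.84 and 7.496 in soleus (log2 difference 1.87, SE 0.21, adjusted p = 8.30e-06). Egfl7, a secreted endothelial protein, was at 10.98, 11.3 and 12.2 FPKM in white fat and 28.6, 34.6 and 25.3 in soleus (log2 difference -1.28, SE 0.14, adjusted p = 5.72e-06). Smooth muscle and pericyte genes were lower in white fat in 5 of 9 members, higher in 1 and not called in 3 (median -0.20, turning to 0.33 under TPM scaling). Rgs5, a pericyte gene, was at 19.1, 31.4 and 20.9 FPKM in white fat and 88.9, 77.8 and 74.0 in soleus (log2 difference -1.74, SE 0.16, adjusted p = 1.61e-06). Kcnj8, a potassium channel of mural cells, was at 3.52, 3.51 and 3.19 FPKM in white fat and 15.6, 11.7 and 10.8 in soleus (log2 difference -1.62, SE 0.12, adjusted p = 2.05e-07). Acta2, smooth muscle actin, was at 35.8, 22.1 and 38.5 FPKM in white fat and 22.98, 22.8 and 22.3 in soleus (log2 difference 0.45, SE 0.17, adjusted p = 0.0266). Nerve markers gave 4 members, of which 2 were higher in white fat, 1 was lower and 1 was not called, with 1 of soleus alone. Pmp22, a myelin protein that other cells also make, was at 74.6, 81.1 and 63.99 FPKM in white fat and 23.99, 37.4 and 24.9 in soleus (log2 difference 1.34, SE 0.16, adjusted p = 1.06e-05). Alas2, the heme synthesis gene of red cell precursors, was at 6.41, 11.5 and 6.25 FPKM in white fat and 2.17, 1.33 and 2.34 in soleus (log2 difference 1.59, SE 0.23, adjusted p = 6.62e-05). The globin genes are not analysed here.

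Hox genes, which mark position along the body axis and, in the later groups, along the limb, divided by paralog group. Of a list of 39 genes, 31 were in the matrix and 16 were members. The 9 members of paralog groups 1 to 8 were each higher in white fat, by 0.42 to 4.40 log2 units. The 7 members of groups 9 to 11 were each lower, by 0.44 to 4.59. The sign of the 16 genes was the same under the 4 other scalings. Hoxc8 was at 44.5, 38.5 and 39.9 FPKM in white fat and 1.51, 0.768 and 0.776 in soleus (log2 difference 4.40, SE 0.13, adjusted p = 1.94e-10). Hoxb3 was at 3.46, 3.23 and 3.604 FPKM in white fat and 0.3097, 0.338 and 0.2399 in soleus (log2 difference 1.77, SE 0.07, adjusted p = 2.84e-09). Hoxb5 was at 2.82, 2.83 and 3.09 FPKM in white fat and 0.152, 0.289 and 0.138 in soleus (log2 difference 1.72, SE 0.07, adjusted p = 3.38e-09). Hoxc10 was at 21.2, 24.5 and 25.5 FPKM in soleus and 0, 0.02596 and 0.0508 in white fat (log2 difference -4.59, SE 0.08, adjusted p = 3.89e-12). Hoxa10 was at 6.87, 8.93 and 6.73 FPKM in soleus and 0, 0 and 0.0378 in white fat (log2 difference -3.06, SE 0.09, adjusted p = 2.98e-10). Hoxc11 was at 6.38, 6.69 and 7.49 FPKM in soleus and listed at 0 in white fat. Of the 16, 5 passed the filter through white fat alone and 6 through soleus alone, but the filter does not fix which paralog groups lie on which side. The boundary fell inside the Hoxa, Hoxc and Hoxd clusters. Hoxa7 was higher in white fat (log2 difference 1.56) and Hoxa9 lower (log2 difference -1.72). Hoxc8 was higher in white fat and Hoxc9 lower, at 2.04, 2.03 and 1.87 FPKM in white fat and 5.42, 5.97 and 5.57 in soleus. Hoxd8 was higher, at 4.62, 4.42 and 5.23 FPKM in white fat and 2.86, 3.29 and 3.81 in soleus, and Hoxd9 lower, at 0.506, 0.444 and 0.661 FPKM in white fat and 1.18, 1.04 and 1.02 in soleus. Hoxa7, Hoxa9, Hoxc9, Hoxd8 and Hoxd9 were picked after their values were seen. The split is one of the members. Under the filter, Hoxb9 went the other way, at 0.320, 0.0887 and 0.313 FPKM in white fat and 0.0603, 0.0535 and 0.0735 in soleus. Hoxa3, Hoxb2, Hoxb8, Hoxa13 and Hoxd10, also under it, followed the split. Among 13 other positional and lineage factors, 7 were higher in white fat and 6 lower, 3 and 6 of them of 1 tissue alone. Tcf21, a factor of visceral mesenchyme, was at 6.68, 4.17 and 5.55 FPKM in white fat and 0.185, 0.0262 and 0 in soleus (log2 difference 2.58, SE 0.13, adjusted p = 9.67e-09). Its ratio of means went from 77.8 to 417 without soleus 1. Twist1 was at 8.56, 5.86 and 7.77 FPKM in white fat and 1.05, 0.827 and 0.752 in soleus (log2 difference 2.15, SE 0.12, adjusted p = 2.42e-08). Tbx1, a T-box factor, was at 9.72, 9.503 and 10.1 FPKM in soleus and 0.0687, 0.0564 and 0.184 in white fat (log2 difference -3.29, SE 0.07, adjusted p = 1.70e-11). Without white fat 3 the ratio of means went from 94.9 to 156 for Tbx1 and from 926 to 1826 for Hoxc10.

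**Figure D5:**
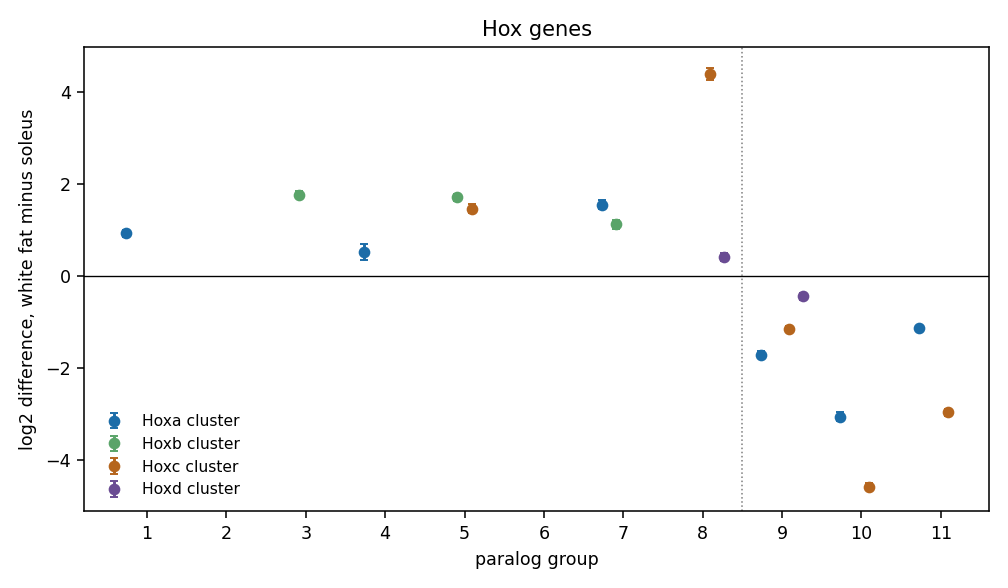
Log2 difference (white fat minus soleus) of the 16 Hox genes among the members against their paralog group; points are fitted differences, bars are standard errors and colours are gene clusters. The 9 genes of groups 1 to 8 lie above 0 and the 7 genes of groups 9 to 11 lie below it, with a dotted line drawn between groups 8 and 9.

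Ubiquitin ligases and FoxO genes linked to muscle wasting were lower in white fat in 8 of 14 members, higher in 5 and not called in 1 (median -0.79, with 4 of soleus alone). Over all members, 30.2% were lower and 54.6% higher. Asb5 and Asb2, adaptors of cullin ligases, were at 178, 181 and 183 FPKM and 149, 156 and 161 FPKM in soleus, with at most 0.224 FPKM in a white fat library. Trim63, the ligase MuRF1, was at 102, 94.7 and 117 FPKM in soleus and 0.01904, 0.0264 and 0.0148 in white fat (log2 difference -6.69, SE 0.11, adjusted p = 4.34e-12). Foxo1 was higher in white fat, at 17.3, 19.96 and 16.5 FPKM in white fat and 3.67, 3.16 and 4.74 in soleus (log2 difference 1.97, SE 0.24, adjusted p = 1.69e-05). The ligase Nedd4 was higher too, at 175, 171 and 170.2 FPKM in white fat and 59.03, 52.4 and 64.9 in soleus (log2 difference 1.54, SE 0.09, adjusted p = 3.73e-08). Genes that cells in general use were no flat reference here. Of 16 members 8 were higher in white fat, 7 were lower and 1 was not called (median 0.13, with 1 of soleus alone, turning to -0.08 and -0.26 under upper quartile and median of ratios scaling). B2m, the light chain of MHC class I, was at 1436, 1485 and 1867 FPKM in white fat and 163, 119 and 110.4 in soleus (log2 difference 3.61, SE 0.17, adjusted p = 6.12e-09). Gusb, a lysosomal enzyme, was at 23.6, 22.7 and 22.01 FPKM in white fat and 4.29, 4.93 and 3.84 in soleus (log2 difference 2.16, SE 0.09, adjusted p = 2.44e-09). Rplp0, a ribosomal protein, was at 158, 109.6 and 135 FPKM in white fat and 239, 293 and 225 in soleus (log2 difference -0.91, SE 0.14, adjusted p = 1.19e-04). Gapdh was at 0.3202, 0.428 and 0.329 FPKM in white fat and 1.37, 1.91 and 1.92 in soleus, a low level for a glycolytic enzyme. Like Pgk1 it has near-identical pseudogene copies, so the values of both are uncertain.

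In all, 44 members were listed at 0 in each white fat library and 5 in each soleus library, and 22 and 3 of them averaged at least 10 FPKM in the other tissue. Genes listed at 0 in white fat with such a level in soleus and not given above included Dhrs7c (99.7, 110.1 and 102 FPKM), Fzd9 (54.6, 69.2 and 60.5 FPKM), Tceal7 (28.9, 46.6 and 41.7 FPKM), BC048679 (26.2, 37.2 and 27.6 FPKM) and Popdc3 (24.3, 29.2 and 26.6 FPKM). The others were Trim55 (22.3, 22.01 and 24.7 FPKM), Dupd1 (10.5, 17.8 and 18.04 FPKM), Myl10 (13.9, 13.1 and 11.8 FPKM), St8sia5 (9.97, 11.2 and 11.1 FPKM), Tmem233 (10.96, 9.47 and 10.9 FPKM) and Arpp21 (8.84, 9.96 and 12.2 FPKM). Several of these are muscle genes, such as Trim55, a sarcomere ligase, and Popdc3, a membrane protein of striated muscle. In soleus the 3 were Acta1, Apol6, at 113, 124 and 120.4 FPKM in white fat, and Lsp1, an actin-binding protein of leukocytes, at 47.3, 44.3 and 53.1 FPKM. Of the calls with a log2 difference of at least 1, 5 higher and 44 lower in white fat rested on such a 0.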

How the data were processed

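TRIzol was used for the RNA and the Illumina TruSeq v2 kit for the libraries, per the labels' protocols. The authors deposited FPKM per transcript entry; TopHat 1.4.1, Cufflinks 2.0.1 and mm9 are named, per the submitters' processing notes, without their settings. The 18401 matrix entries were joined to RefSeq names (18305) or GENCODE names (38), 55 had no symbol and 3 had several (together 0.0339% to 0.360% of a library's FPKM, left out), and entries were summed per symbol, 541 symbols having several.

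Differences are limma 3.58.1 fits (R 4.3.3) of log2 values, computed here from the deposited FPKM as log2(FPKM + 1), with a trended variance over all 9 libraries and Benjamini-Hochberg adjustment over 9913 genes that reached 1 FPKM in 3 of the 9. The fit was tested on simulated data. Total read counts are not given in the sources used here: relative depth was read from the spacing of values up to 0.3 FPKM, and 14 of 15 library pairs fell within 0.03 log2 units of a common value.

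Members and gene lists were chosen with earlier results of these data known. Named genes are Cidec, Adipoq, Myl2 and Tnnc2, the 10 largest differences per direction (mean of at least 10 FPKM, not at 0 throughout the other tissue), the 10 highest per tissue, up to 3 called members per direction of each list with its highest member and defining markers, isozyme families, and genes at 0 in 1 tissue with at least 10 FPKM in the other. All adjusted p-values are limma's. Some named members are not reported here. Alternatives were 4 scalings, 2 pseudocounts, 2 filters, a fit of the 6 libraries alone, no variance trend, array weights, the highest entry of a symbol, a replicate block and leaving out each library. Promoter and microRNA sequences are RefSeq's on GRCm38.p6, used for description since the FPKM rest on another build.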

Additional observations from a re-analysis of the deposited data

How the results depend on the processing

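The counts of called genes stayed within 1.5 times of the main value in most alternatives. With a pseudocount of 5, 2218 members were called with a log2 difference of at least 1, of which 1289 were higher in white fat and 929 lower. With a filter of 5 FPKM fewer genes were tested, and 5453 were called, 3226 of them higher. After TPM scaling 4069 were higher by at least 1 log2 unit and 1862 were called lower; each library was divided by its own sum, which was larger in soleus. Leaving out 1 library at a time gave 7979 to 8112 called members, 5130.0 to 5272 higher, 2815 to 2944 lower, and with a difference of at least 1, 4031 to 4128 in all, 2644 to 2707 higher and 1384 to 1458 lower.

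Signs turned for the list medians of glucose uptake (-0.0438, median of ratios), muscle-secreted proteins (-0.10, quantile), endothelium (-0.0340 upper quartile, -0.21 median of ratios, -0.13 quantile), smooth muscle (0.33, TPM), nerve (-0.0082, median of ratios), Hox (-1.16) and other positional factors (-3.04, both with the filter of 5 FPKM, which leaves fewer members) and general genes (-0.0755 upper quartile, -0.26 median of ratios). Among single genes they turned for Ampd3 (0.15, TPM), Atpif1 (-0.0296, median of ratios), Fth1 (0.41 TPM, 1.00 quantile), Ldha (0.18 TPM, 0.46 quantile), Nampt (0.0076, TPM), Rxrg (0.0272, TPM) and Slc2a1 (0.10, TPM). Of 4600 values for 243 genes under the alternatives, 4549 kept direction and call, 35 lost the call, 7 gained it and 9 turned. Where no value above names the reason, the cause was not tested.

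With the replicate number as a block, 8118 members were called (5233 higher, 2885 lower), 2670 and 1405 of them by at least 1. Same-numbered white fat and soleus libraries deviated together with r of -0.11, -0.22 and 0.01, so the numbers are not read as a pairing. Depth limits low genes: in the shallowest library, white fat 2, a transcript can be listed at 0 that deeper libraries still read.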

Other observations

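Among members that stand in none of the lists, the genes below were picked from the largest differences after their values were seen, and they are given as a description. Among them are 3 receptors higher in white fat. Sucnr1, the receptor for succinate, was at 60.8, 55.3 and 58.4 FPKM in white fat and 1.86, 0.549 and 0.314 in soleus (log2 difference 5.04, SE 0.24, adjusted p = 6.80e-09). Hcar1, the receptor through which lactate restrains lipolysis, was at 32.9, 52.6 and 28.2 FPKM in white fat and 1.08, 0.263 and 0.123 in soleus (log2 difference 4.71, SE 0.27, adjusted p = 2.64e-08). Tshr, the thyrotropin receptor, was at 35.96, 40.4 and 32.5 FPKM in white fat and 0.823, 0.381 and 0.107 in soleus (log2 difference 4.72, SE 0.17, adjusted p = 1.06e-09). Enzymes and a transporter were picked too. Slc1a5, a glutamine transporter, was at 494, 467 and 493 FPKM in white fat and 17.3, 8.41 and 5.43 in soleus (log2 difference 5.55, SE 0.29, adjusted p = 1.57e-08). Phgdh, the first enzyme of serine synthesis, was at 68.3, 52.4 and 54.2 FPKM in white fat and 1.53, 0.899 and 0.478 in soleus (log2 difference 4.94, SE 0.19, adjusted p = 1.28e-09). Nnmt, which methylates nicotinamide, was at 209, 182 and 149 FPKM in white fat and 8.86, 6.28 and 3.13 in soleus (log2 difference 4.75, SE 0.28, adjusted p = 4.04e-08). C3, the central complement protein, was at 323, 263 and 344 FPKM in white fat and 9.17, 4.35 and 4.14 in soleus (log2 difference 5.56, SE 0.27, adjusted p = 8.32e-09), and Prkar2b, a regulatory subunit of protein kinase A, had a log2 difference of 5.54. Sult1e1, an oestrogen sulfotransferase, ranged more widely within white fat, at 60.98, 32.1 and 79.3 FPKM, as did Slpi, a protease inhibitor, at 126, 66.97 and 44.9 FPKM. No soleus library reached the white fat range of these 10 genes, and soleus 1 had the highest soleus value of each. In soleus 1, 2 and 3, Slpi was at 1.87, 0.281 and 0.138 FPKM and Sult1e1 at 1.31, 0.331 and 0 FPKM. Ratios without soleus 1 are not given for these genes, so the size of their differences rests in part on that library.

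In soleus, Smpx, a small protein of the muscle cytoskeleton, was at 599, 795 and 600.1 FPKM in soleus and 0.0338, 0.0432 and 0 in white fat (log2 difference -9.33, SE 0.23, adjusted p = 5.59e-11). Apobec2, a muscle relative of the cytidine deaminases, was at 557, 759 and 646 FPKM in soleus and 0.0317, 0.0875 and 0.0368 in white fat (log2 difference -9.27, SE 0.25, adjusted p = 1.06e-10). Rpl3l, a muscle paralog of the ribosomal protein gene Rpl3, was at 300.2, 331 and 309 FPKM in soleus and 0.0306, 0 and 0.01798 in white fat (log2 difference -8.27, SE 0.17, adjusted p = 1.29e-11), a further paralog that muscle uses beside those of the isozyme families. Fitm1, a protein that helps lipid droplets form in muscle, was at 258, 294 and 257 FPKM in soleus and 0.009096, 0.0126 and 0.0541 in white fat (log2 difference -8.04, SE 0.11, adjusted p = 1.64e-12). Hjv, hemojuvelin, a regulator of iron balance, was at 210.2, 241 and 247 FPKM in soleus and 0.0528, 0.0488 and 0.0478 in white fat (log2 difference -7.79, SE 0.16, adjusted p = 1.82e-11). Trim72, which takes part in membrane repair, was at 135, 151 and 177 FPKM in soleus and 0.0423, 0.04099 and 0.0273 in white fat (log2 difference -7.22, SE 0.12, adjusted p = 2.99e-12). Small heat shock proteins went with them: Hspb6 was at 1271, 1533 and 1630.5 FPKM in soleus and 8.91, 9.15 and 9.71 in white fat (log2 difference -7.16, SE 0.11, adjusted p = 2.31e-12), and Hspb7 had a log2 difference of -8.11. Got1, the cytosolic enzyme of the malate-aspartate shuttle, was at 266, 293 and 294 FPKM in soleus and 2.76, 2.78 and 3.07 in white fat (log2 difference -6.20, SE 0.13, adjusted p = 1.70e-11). The white fat values of these 9 genes stayed below 10 FPKM in each library, and no range overlapped.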
